A study of Eisenia fetida with 6 samples.

Results

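A set of 118 single unigenes, out of 47552 single unigenes and 55641 assembled contigs in all, stood at least 8-fold higher in the intestine of earthworms exposed to tri-n-butyl phosphate (TnBP) than in control worms. They were chosen by their measured values in the same 6 libraries, so the sizes of their rise describe the choice and are not a test of it. A unigene is a sequence assembled from the reads that was placed in no cluster with other contigs. Expected counts, the number of reads estimated for a contig, were divided by a median-of-ratios size factor for each library to give normalised read counts. A unigene was taken when it was under 5000 bases long, held under 0.1% of control counts and averaged at least 100 normalised reads in TnBP. Its TnBP mean also had to be at least 8 times its control mean, with every TnBP library above every control library. Of the members, 4 had no control reads. The other 114 had reads in at least 1 control library and are called low-baseline members. That name does not mean a low level for all of them: Unigene47055 averaged 7597 normalised reads in control. By count, 6 members ranked among the top 1000 contigs of a control library.

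RNA came from intestinal tissue of adult Eisenia fetida, a compost earthworm used in soil toxicity tests, kept for 14 days in artificial soil. The exposed group received TnBP at 10 mg/kg and the control group did not receive that exposure; strain and genotype are not stated. There were 3 libraries per group, every one made from the combined intestines of 3 worms, so single worms were not measured. Whether pools shared a soil container is not stated, and p-values measure only the spread between these pools, which may be technical. Because the tissue was measured in bulk, more cells of a type and more RNA per cell cannot be told apart for any rise given here.

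TnBP is an organophosphate ester used as a plasticizer, flame retardant and solvent. The earthworm gut absorbs nutrients and soil chemicals, and the chloragogenous tissue around it stores reserves and takes part in detoxification. In animals, lipophilic chemicals of this kind are commonly oxidised by cytochrome P450 enzymes and then conjugated, for example by glutathione S-transferases, and many such genes are held low until a chemical induces them. The identifiers of these unigenes are not paired with gene names or sequences in the files. Their roles are therefore not known here, the tissue label could not be checked against marker genes, and no pathway is assigned. Identifiers are printed without their species suffix.

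The 6 libraries held 9494666 to 9643939 expected counts in the TnBP group and 8435554 to 9099412 in the control group. Counts of the TnBP libraries were divided by size factors of 1.31 to 1.43 and those of the control libraries by 0.708 to 0.796. A mean of 100 normalised reads thus stood for about 137 reads in a TnBP library and 76.4 in a control library. Across 25353 contigs tested with edgeR, 6110 were higher after TnBP, which is 24.1%, and 6211 were lower (p under 0.05 in the quasi-likelihood test after Benjamini-Hochberg adjustment). Scaling by library totals gave 13652 higher and 2859 lower, and moved the median log2 ratio of all contigs to 0.78, against 0.01. Unless said otherwise, every fold change below is relative to the size factors or to edgeR's TMM scaling. Shares of all counts and FPKM values carry neither scaling. Under library totals the members' median log2 change was 4.69, against 3.93 with TMM.

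The rise of the members was carried in bulk by a few of them. The 118 members made up 3.81%, 4.03% and 3.66% of all counts in TnBP replicates 1 to 3, against 0.176%, 0.183% and 0.167% in control replicates 1 to 3. The 7 highest members alone held 3.12% ± 0.18 of the counts in TnBP libraries and 0.143% ± 0.00765 in control libraries (SD, n = 3 each). Those 7 took 81.4% ± 0.806 of the members' counts in TnBP libraries and 81.3% ± 0.673 in control libraries, so their joint weight among the members was nearly the same in both groups. The other 111 members together held 0.712% ± 0.00337 of TnBP counts and 0.0327% ± 0.000777 of control counts.

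**Figure D1:**
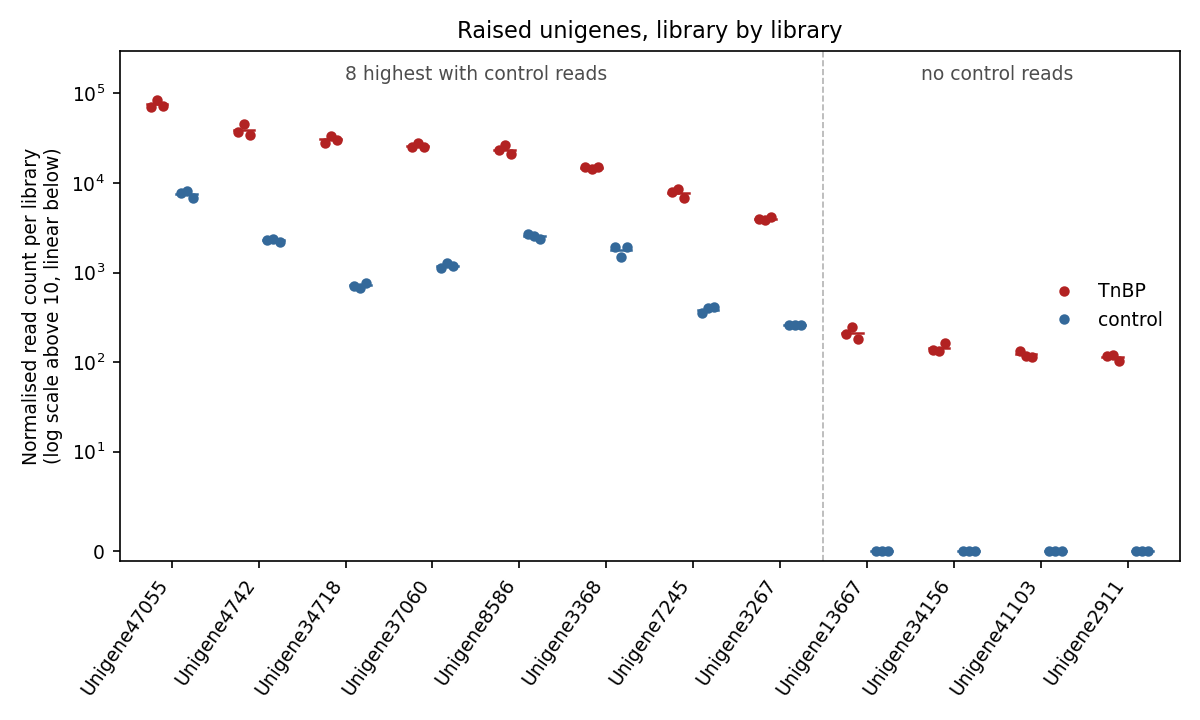
Normalised read counts (vertical axis, log scale above 10 and linear below) of the 8 highest members with control reads and of the 4 members without, with points for the 3 TnBP and 3 control libraries and a line at each mean. Every TnBP point lies above every control point of the same unigene, as the choice required, and the control points of the last 4 unigenes lie at 0.

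Unigene47055, 2134 bases long, was the most abundant member. It had 71282, 84634 and 73183 normalised reads in TnBP replicates 1 to 3, against 7830, 8182 and 6779 in control replicates 1 to 3. The ratio of means was 10.1, and edgeR fitted a change of 3.29 on the log2 scale, SE 0.11 (adjusted p = 3.9e-09). It ranked 16th by count among all contigs in each TnBP library and between 109th and 124th in the control libraries. TnBP replicate 2 was the highest of its libraries by a clear step.

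Unigene4742, of 1602 bases, came next. Its normalised reads were 37282, 45676 and 34276 in TnBP libraries, against 2330, 2381 and 2180 in control libraries. On the log2 scale edgeR put the change at 4.04 with an SE of 0.12 (adjusted p = 3e-09). Like Unigene47055 it was highest in TnBP replicate 2, while its control libraries lay close together.

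Unigene34718, of 2235 bases, had the steepest rise of the abundant members. It held 28292, 33739 and 29932 normalised reads in TnBP libraries, against 706, 671 and 774 in control libraries, a ratio of 42.75. The change fitted by edgeR was 5.37 on the log2 scale with an SE of 0.11 (adjusted p = 8.7e-10). Its rank was 30 in every TnBP library and 808 to 960 in the control libraries. It is the only one of the 8 highest members that is also among the 6 largest ratios of members with reads in all control libraries.

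Unigene37060, of 1756 bases, had 25021, 28205 and 25093 normalised reads in TnBP libraries, against 1129, 1270 and 1187 in control libraries, a ratio of 21.8. Unigene8586, of 1813 bases, had 23112, 26514 and 21146 in TnBP libraries, against 2724, 2592 and 2382 in control libraries, a ratio of 9.19. The ranges of this pair over the TnBP libraries overlapped, but Unigene37060 was the higher in every TnBP library. Their control levels did not overlap and ran the other way.

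Unigene3368, of 1075 bases, had 15090, 14394 and 15164 normalised reads in TnBP libraries, against 1910, 1508 and 1921 in control libraries, a ratio of 8.36 near the lower limit of the choice. Unigene7245, of 1605 bases, had 7932, 8615 and 6866 in TnBP libraries, against 349, 402 and 409 in control libraries, a ratio of 20.2. Unigene3267, of 2266 bases, had 3924, 3910 and 4123 in TnBP libraries, against 261, 259 and 262 in control libraries, a ratio of 15.3. Unigene3267 had the smallest standard error of all members, at 0.091 around a log2 change of 3.89 (edgeR, adjusted p = 9.3e-10).

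**Figure D2:**
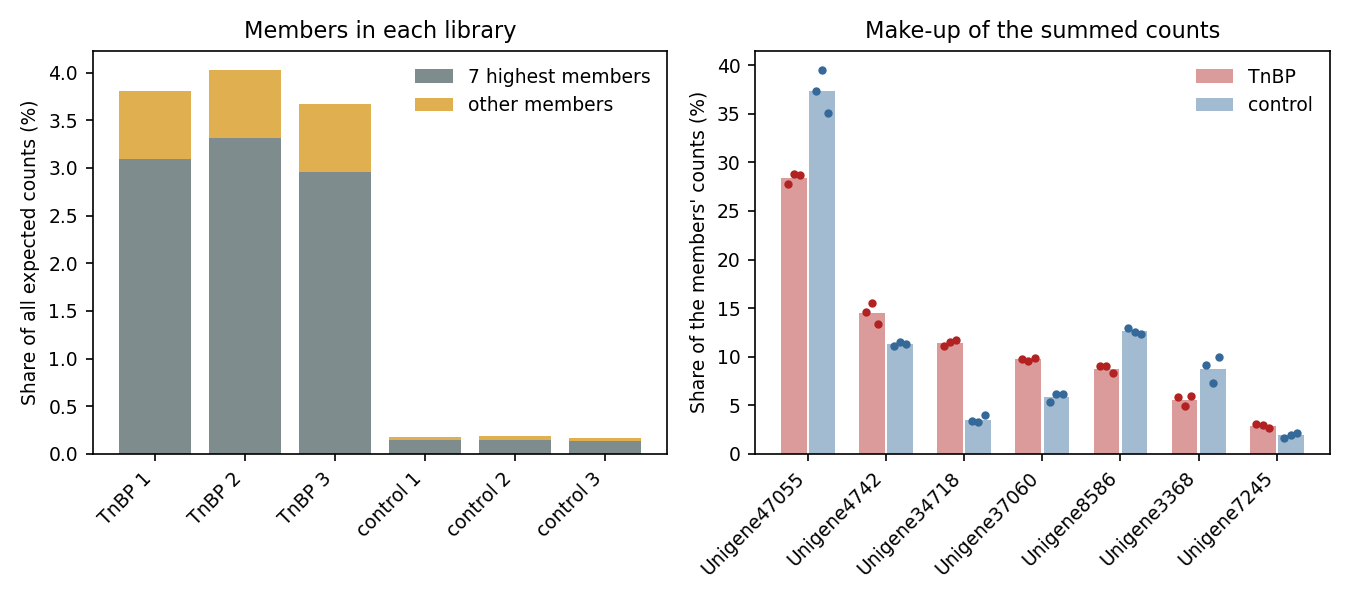
Left, the share of all expected counts (%) held by the 7 highest members and by the other members in each library, from 3.66% to 4.03% in TnBP and from 0.167% to 0.183% in control. Right, the share of the members' summed counts (%) taken by each of the 7 highest, with bars at the mean and points for the 3 TnBP and 3 control libraries; Unigene34718 takes 11.4% in TnBP and 3.54% in control.

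The abundant members did not rise in step, and this comparison within the members does not depend on library scaling. Unigene34718 took 11.4% ± 0.349 of the members' counts in TnBP libraries and 3.54% ± 0.412 in control libraries (SD, n = 3 each). Unigene37060 likewise took a larger part in TnBP, 9.74% ± 0.127 against 5.89% ± 0.435 in control. Unigene47055 took a smaller part in TnBP, 28.5% ± 0.528 against 37.3% ± 2.21 in control. Unigene8586 took 8.78% ± 0.421 in TnBP and 12.6% ± 0.342 in control, and Unigene3368 took 5.58% ± 0.592 in TnBP and 8.78% ± 1.36 in control. For these 5 members the 3 libraries of each group did not overlap, and no test was made because the members were chosen on this contrast.

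Per length, measured as the deposited FPKM, the order among the highest members was partly different. Unigene47055 averaged 5018 ± 278 FPKM in TnBP libraries and 301 ± 31.6 FPKM in control libraries (SD, n = 3 each). Unigene4742 followed with 3438 ± 412 FPKM in TnBP libraries and 122 ± 6.99 FPKM in control libraries. Unigene37060 averaged 2094 ± 73.2 FPKM in TnBP libraries and 57.8 ± 4.98 FPKM in control libraries. Unigene37060, Unigene3368, Unigene34718 and Unigene8586 ran in this order from a mean of 2094 down to 1831 FPKM in TnBP libraries. The values of neighbours in the order overlapped and changed places between libraries, so neighbours are not ranked. Unigene37060 was above Unigene34718 and Unigene8586 in every TnBP library. In TnBP libraries 6 members averaged at least 1000 FPKM, 21 at least 100 and 100 at least 10. In control libraries the numbers were 0, 4 and 9.

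The 4 members without control reads were of moderate level. Unigene13667, of 1351 bases, held 299, 325 and 250 expected counts in TnBP replicates 1 to 3, against 0 in each control library. Unigene34156, of 1008 bases, held 196, 175 and 225 in TnBP libraries, against 0 in each control library. Both had whole counts in every library, and all 3 TnBP pools held reads while no control pool did.

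Unigene41103, of 1456 bases, held 189, 155 and 157 expected counts in TnBP libraries, against 0 in each control library; these counts were not whole, so some of its reads were divided with other contigs. Unigene2911, of 1803 bases, held 167, 157 and 142 in TnBP libraries, against 0 in each control library. A count of 0 still allows about 3 reads over the 3 control libraries, or 1.31 normalised reads, which covers counting error only. Against that floor the means were at least 163-fold higher for Unigene13667, 111-fold for Unigene34156, 92.9-fold for Unigene41103 and 86.5-fold for Unigene2911. In FPKM these 4 averaged 8.86 to 22.3 in TnBP libraries and were at 0 or not listed in control libraries. Together they held 0.00848% ± 0.000338 of TnBP counts (SD, n = 3).

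Between absence and a measurable baseline lay 10 members with reads in some control libraries, 8 with reads in 1 and 2 with reads in 2. Their control counts summed to 1 to 13.04 over the 3 libraries, their means in TnBP were 102 to 531 normalised reads, and their lengths were 317 to 1257 bases. Unigene43601, with 253, 266 and 229 expected counts in TnBP libraries, had 1.01 in control replicate 2 and 0 in the other control libraries. Its ratio of 430.5 was the largest among the 114 members with control reads, with a 95% counting interval of 74.55 to 16477, so the size rests on about 1 control read. Unigene21543 held 884, 565 and 749 expected counts in TnBP libraries, against 4.81 in control replicate 3 and 0 in the other control libraries, a ratio of 261 with a counting interval of 105 to 754.5. Both were singled out after their values were seen. The line between absence and a low baseline thus depends on a few reads in single control libraries. Without control replicate 2 there would be 8 members with no control reads, and without control replicate 3 there would be 7.

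**Figure D3:**
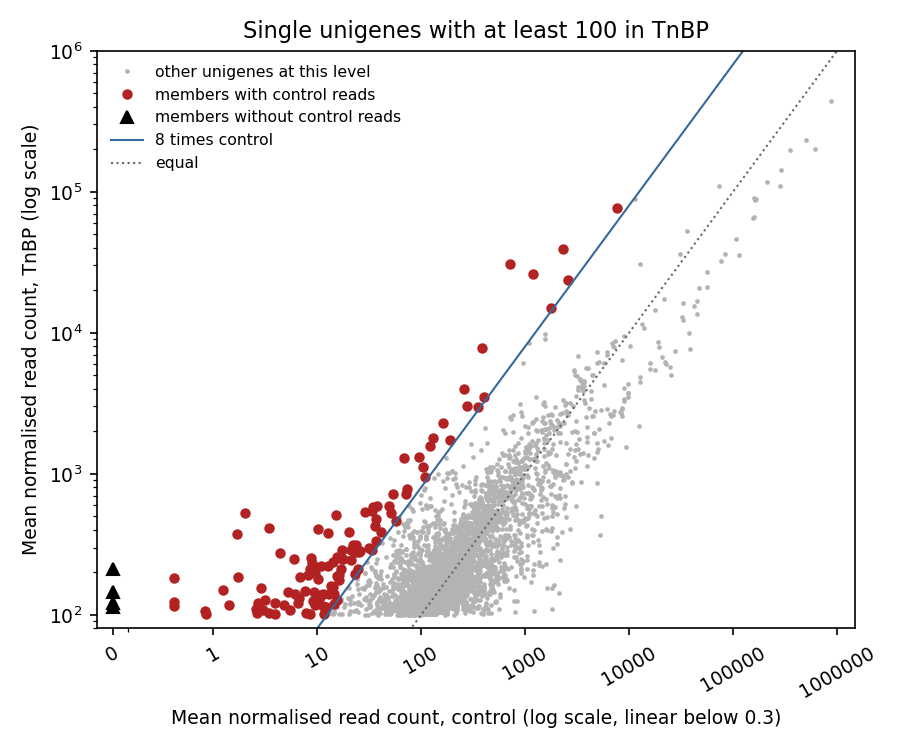
Mean normalised reads in TnBP (vertical axis, log scale) against control (horizontal axis, log scale, linear below 0.3) for the single unigenes under 5000 bases with at least 100 in TnBP. The 114 members with control reads lie above the line of 8 times control, the 4 without lie at 0, and the 3205 other unigenes lie below the line.

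The remaining 104 members had reads in all 3 control libraries. The largest ratio among them was that of Unigene8506, a short unigene of 399 bases. It held 593, 464 and 652 expected counts in TnBP libraries, against 2, 4 and 2 in control libraries, and edgeR fitted a log2 change of 6.80 with an SE of 0.25 (adjusted p = 6.4e-09). Its ratio of 120 had a counting interval of 60.25 to 276, which leaves out the spread between pools.

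Unigene35561, of 825 bases, held 229, 266 and 268 expected counts in TnBP libraries, against 1, 2 and 1 in control libraries, a ratio of 107.5. Unigene11327, of 924 bases, held 410, 409 and 304 in TnBP libraries, against 4, 3 and 3 in control libraries, a ratio of 62.0. Both had whole counts in all 6 libraries, and their control levels rested on 1 to 4 reads a library.

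Unigene23516, the shortest member at 291 bases, held 186, 193 and 253 expected counts in TnBP libraries, against 4.30, 1.06 and 1.05 in control libraries, a ratio of 52.9 with a counting interval of 26.85 to 160.7. Unigene632, of 1716 bases, held 162, 167 and 167 in TnBP libraries, against 2.72, 1.21 and 2.18 in control libraries, a ratio of 44.55. Neither had whole counts throughout, so some of their reads were divided with other contigs by the authors' counting. Control replicate 1 was the highest control library for both, and without it the log2 change that edgeR fitted for Unigene23516 was 6.75, against 5.77 with all libraries.

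Over the 114 members with control reads the ratio of means ran from 8.07 to 430.5 with a median of 14.8. Ratios of 8 to under 16 were found for 60 members, 16 to under 32 for 32, 32 to under 64 for 11, and 64 or more for 11. The 11 with the largest ratios had a median control level of 1.26 normalised reads and a median length of 497 bases, against 24.3 normalised reads and 1758 bases for the 60 with the smallest. Median lengths were 1282.5 bases for ratios of 16 to under 32 and 1716 for 32 to under 64, so length did not fall steadily. The lower control level is partly built in, since the control mean is the divisor of the ratio. The highest TnBP mean among those 11 was 531 normalised reads, so none of the abundant members was among them. The gap between the lowest TnBP and the highest control library was at least 8-fold for 89 of the 114, with a median of 10.8-fold and a smallest value of 4.92-fold for Unigene9367, which was singled out after its value was seen.

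All 118 members were tested with edgeR and all 118 were called higher, beside 24.1% of all contigs tested. Every TnBP library lay above every control library for 30.9% of all contigs tested and, by the rule, for every member. Nothing is read from these counts, since the rule used the same contrast. Fitted log2 changes had a median of 3.93 over the members and 0.01 over all 25353 contigs. The 4 members without control reads lie above that median also at their bounds. This follows from the limit of 100 normalised reads in TnBP and the floor of 1.31, so nothing is read from it. Standard errors over the members ran from 0.091 to 0.52, and the largest adjusted p in edgeR was 9.7e-06. The highest standard error was that of Unigene2911, which has no control reads, so it depends on the prior count. Scaling by library totals moved the members' median to 4.69 and that of all contigs to 0.78.

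The limits of the choice passed through a continuous range of values. Just inside the 8-fold limit were Unigene37391, at a ratio of 8.07, and Unigene40202, at 8.21; just outside were Unigene40330, at 7.98, and Unigene26430, at 7.90. Just inside the limit of 100 normalised reads in TnBP were Unigene3388, with a mean of 101.5, and Unigene48224, with 101.6; just outside were Unigene13666, with 98.1, and Unigene13758, with 96.8. Of the unigenes that met every other condition, 1469 failed the ratio alone, 2575 the TnBP level alone, 7 the length alone, and 0 the control share or the lack of overlap alone. Without control replicate 3, which held its only control reads, the fitted log2 change of Unigene3388 was 9.82, against 6.64 with all libraries; with no control reads left, the first value depends on the prior count and is no bound. For Unigene13666 it was 4.76 without control replicate 2, against 4.05. The longest member, Unigene4929 with 4991 bases, lay just under the length limit and had 944 ± 75.6 normalised reads in TnBP and 109 ± 8.49 in control (SD, n = 3 each).

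The members were also read in a library left out of their choice, with the size factors and the rule recomputed on the other 5 libraries. Only the left-out library was unused by the choice: each ratio sets it against the mean of the opposite group, which the choice had used. A unigene without control reads passes with any reads in a left-out TnBP library. The shares are therefore partly fixed by the choice, and they are given as a description and not as independent support. Of those chosen without TnBP replicate 1, 110 of 117 (94.0%) were at least 8 times the control mean in that library. Over all unigenes of the same level, the chosen ones included, it was 3.58%. The same level means under 5000 bases with at least 100 normalised reads in the TnBP libraries used. For those chosen without TnBP replicate 2 it was 108 of 108, beside 3.68%. For those chosen without TnBP replicate 3 it was 107 of 112 (95.5%), beside 3.45%. Among the others of the level, which had failed the rule, the shares were 0.131%, 0.293% and 0.0656% for TnBP replicates 1 to 3. These low shares are partly fixed by the choice as well. The median ratio of the chosen unigenes in the held-out TnBP libraries was 13.9, 15.6 and 14.9 for replicates 1 to 3. Their lowest ratio in any of these libraries was 6.56, for Unigene40330.

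A left-out control library was set against the TnBP mean on which the unigenes had been chosen as high, so these shares too are partly fixed by the choice. Of the unigenes chosen without control replicate 1, 109 of 124 (87.9%) stood at or under an eighth of the TnBP mean in that library, beside 3.71% of unigenes of the same level. Without control replicate 2 it was 109 of 125 (87.2%), beside 3.63%, and without control replicate 3 it was 110 of 122 (90.2%), beside 3.88%. These backgrounds include the chosen unigenes. Without them the shares were 0.646%, 0.508% and 0.745% for control replicates 1 to 3. The weakest case among the chosen was Unigene2201, at a ratio of 1.48 when control replicate 3 was held out. It is not a member when all 6 libraries are used. Over the 6 held-out libraries 653 of 708 readings (92.2%) passed, and the choices share most of their libraries.

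**Figure D4:**
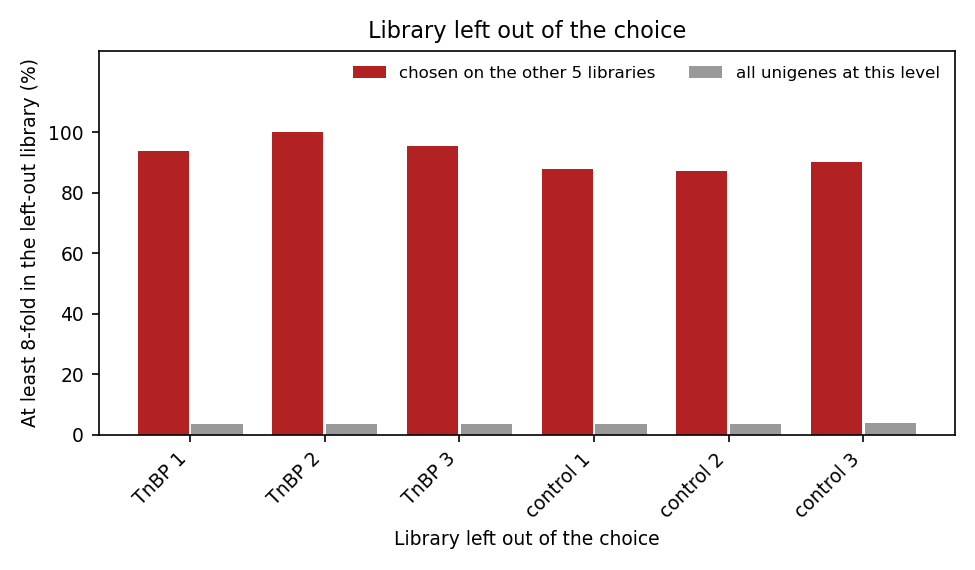
Share (%) of unigenes at least 8-fold higher in TnBP when read in a library that was left out of the choice, for those chosen on the other 5 libraries and for all unigenes of the same level, with 1 pair of bars per left-out library. The chosen unigenes reach 87.2% to 100% and all unigenes of that level, the chosen ones included, 3.45% to 3.88%. Without the chosen ones it is 0.0656% to 0.745%. The mean of the opposite group in each ratio was used by the choice.

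The spread between TnBP pools was not used by the rule, apart from the condition on overlap. The coefficient of variation over the 3 TnBP libraries had a median of 9.37% over the members and 7.93% over the 3205 other unigenes of the same level. Beyond counting noise the medians were 7.48% over the members and 5.55% over the others. Within the level of 100 to under 200 normalised reads, which held 53 members, the medians were 10.7% over the members and 8.98% over the others, and from 200 to under 500 they were 7.83% and 7.03%. These are descriptions without a test.

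The pools differed most for Unigene5755, with 219, 261 and 158 normalised reads in TnBP libraries, against 19.8, 16.3 and 15.2 in control libraries. Unigene31488 had 128, 103 and 79.8 in TnBP libraries, against 1.41, 6.28 and 2.54 in control libraries. Unigene32055 had 276, 392 and 446 in TnBP libraries, against 0, 3.77 and 1.27 in control libraries. The 3 most variable members thus had their highest values in different TnBP pools, and their coefficients of variation were 23.4% to 24.3%. Single control libraries moved the size of the change for 2 of them: without control replicate 2 the fitted log2 change was 5.55 for Unigene31488, against 4.81 with all libraries, and 8.83 for Unigene32055, against 7.60.

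The most even member was Unigene6368, with 250.3, 246 and 247 normalised reads in TnBP libraries, against 18.4, 15.1 and 20.3 in control libraries. Unigene37 had 146, 148 and 144 in TnBP libraries, against 4.32, 5.05 and 6.49 in control libraries. Unigene2484 had 284, 288 and 292 in TnBP libraries, against 35.3, 41.4 and 25.4 in control libraries. Their coefficients of variation were 0.976% to 1.35%, the lowest of 118 values that each rest on 3 libraries. Unigene6368 held 359, 323 and 337 expected counts in TnBP replicates 1 to 3, where counting noise alone exceeds such a spread. Its FPKM values in these libraries were 36.4, 32.9 and 34.7. The evenness thus depends on the scaling, and no tighter control of these members is read from it.

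TnBP replicate 2 was the highest TnBP library for 63 of the 118 members (53.4%) and for 46.6% of the other unigenes of the same level. It was no longer so under library totals, where TnBP replicates 1 to 3 were highest for 38, 37 and 43 members. Which pool was highest therefore changed with the scaling. That count was added after the data were seen. In control, the highest library was replicate 1, 2 and 3 for 39, 38 and 37 of the 114 members with control reads.

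**Figure D5:**
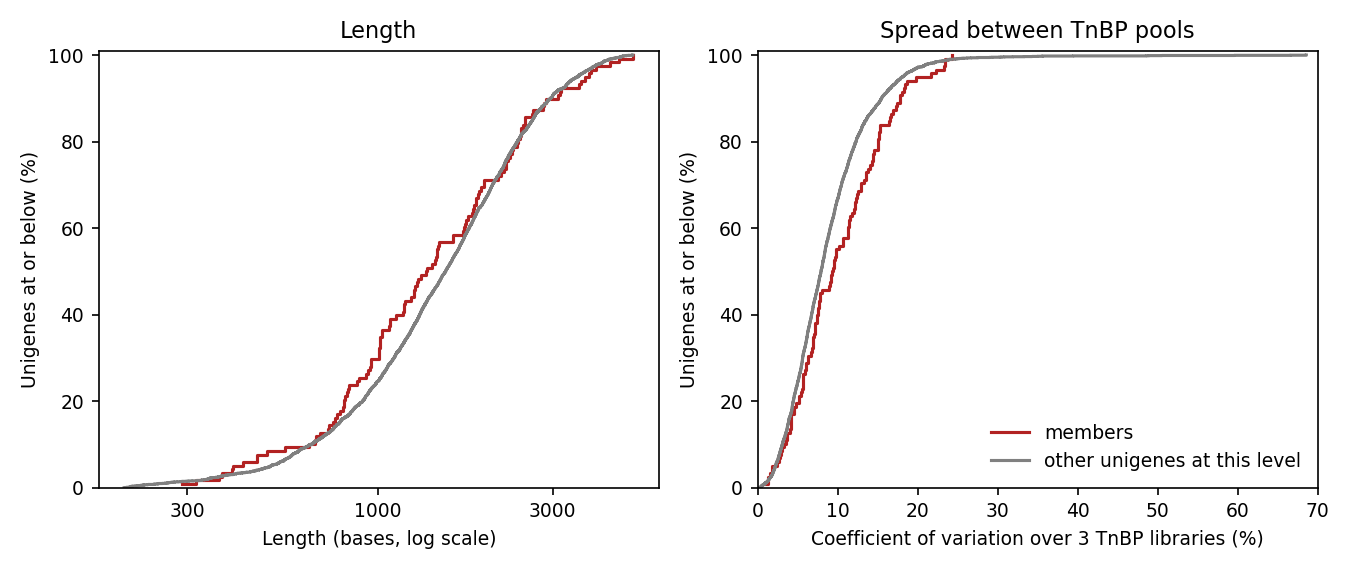
Cumulative share (%) of unigenes by length (left, bases, log scale) and by coefficient of variation over the 3 TnBP libraries (right, %), for the members and the 3205 other unigenes of the same level. The members have a median length of 1356 bases against 1531 and a median variation of 9.37% against 7.93%.

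The median length of the members was 1356 bases, with a range of 291 to 4991, and that of the other unigenes of their level was 1531. At 200 normalised reads or more the medians were 1443 bases over the members and 1712 over the others, and from 200 to under 500 they were 1181 and 1741.5. From 100 to under 200 they were 1257 bases over the members and 1363 over the others, while in each class from 500 upwards the members had the longer median. Members made up 6.17% of the level-matched unigenes under 500 bases, 3.77% of those from 500 to under 1000, 3.42% from 1000 to under 2000 and 3.19% from 2000 to under 5000. The first of these classes held 10 members. By level, members made up 3.2% to 3.83% of unigenes in each class from 100 to under 10000 normalised reads, and 6 of 40 (15.0%) at 10000 or more.

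Reads that fit several contigs are divided by RSEM, and this leaves expected counts that are not whole. Of the members, 75 (63.6%) had counts within 0.005 of a whole number in all 6 libraries, against 66.9% of the other unigenes of the same level. The other 43 members, Unigene47055 among them, shared some reads with other contigs, and their values are less certain for that reason. Among the 10 members with reads in only some control libraries, 6 had counts that were not whole.

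The same limits can be set beside other sequences of the assembly. They were met by 3.55% of the unigenes under 5000 bases with at least 100 normalised reads in TnBP (118 of 3323), against 8.56% of the cluster contigs of that length and level (151 of 1764). Contigs of a cluster can share reads, so the count of cluster contigs is not one of separate genes. With the groups exchanged, 180 unigenes met the limits, or 5.08% of the 3543 at 100 normalised reads in control. These shares were not tested against each other. They are given with the size factors only, while under library totals 282 unigenes met the limits in the TnBP direction. The level limits also differ in reads, about 137 in a TnBP library and 76.4 in a control library. Which direction held more unigenes is therefore not read from these counts.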

How the data were processed

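RNA-seq of intestinal tissue was analysed in 3 TnBP and 3 control libraries, grouped by the treatment label. Per the file headers, the deposited tables list for each assembled contig an expected count, which is an estimated read number without normalization, and an FPKM, which the authors derived by dividing by length and depth. The submitters' processing notes list the tools RSEM and Bowtie 0.12.2, and a mouse build (mm8), which does not match the earthworm identifiers. The assembler, filters and strand setting were not found in those sources. Contigs not listed in a table were set to 0.

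Size factors were medians of ratios over 35181 contigs above 0 in all 6 libraries. Counts were rounded and tested with edgeR 4.0.16 in R 4.3.3 (filterByExpr at 10 counts, TMM, quasi-likelihood test, Benjamini-Hochberg adjustment over all contigs), after the code was tested on simulated data. Standard errors of edgeR changes are the absolute fitted log2 change divided by the square root of the F statistic of the quasi-likelihood test. Counting intervals are exact binomial (95%) on counts summed over the libraries of a group. They cover counting error only and leave out the spread between pools. Alternatives used DESeq2 1.42.0 and limma 3.58.1. Chi-square per degree of freedom between replicates was 2.58 to 3.24, above sampling noise, so each counted as 1 sample. Unless said otherwise, named members were taken by rule: highest TnBP level with or without control reads, largest ratio with reads in all controls, highest FPKM, largest and smallest spread, longest, shortest, and nearest to a limit. The members and lists were chosen with earlier results of these data known.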

Additional observations from a re-analysis of the deposited data

How the results depend on the processing

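The number of members, 118, was 117 with TMM scaling, 122 with medians in place of means, and 108 to 125 with any 1 library left out. It moved to 282 under library totals and to 215 when FPKM gave both the ratio and the overlap, and in both cases all 118 were among them; neither scaling carries the composition correction of the size factors. Ratios of at least 4 and 16 gave 269 and 58, and levels of 50 and 200 gave 203 and 65, by construction of the limits. Members without control reads numbered 9 and 1 at levels of 50 and 200, against 4, and 4 to 8 with 1 library left out. With 4 in place of 8 times, 99.9% of held-out readings passed, against 92.2%. Over all unigenes of the level it was 8.11% to 8.53%, against 3.45% to 3.88%. The unigenes were still chosen at 8-fold, so passing the looser limit was largely fixed in advance. Called contigs, 12321 in all, numbered 7243 with a filter of 5 CPM, which tested 11073 contigs. Limma called 20695 on log2(FPKM + 1), 18928 on log2(FPKM + 0.1) and 21487 without a filter, with 17387, 15836 and 18236 higher and 3308, 3092 and 3251 lower; the cause was not tested. With the replicate block 11253 were called; deviations of same-numbered libraries correlated at -0.003, 0.045 and -0.016, which gives no pairing by number. All 118 members were called higher in each of the 15 alternative fits, and 480 of 480 refits of the 32 named unigenes kept direction and call. The choice used the same libraries and contrast, so both counts were largely fixed in advance and nothing is read from them. Of all contigs, DESeq2 called 4995 of 55622 higher, and edgeR under library totals called 13652 of 25353 higher. Fitted changes of the members without control reads depend on the prior count. Depth limits most the members with few or no control reads.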
